A study of Oryctolagus cuniculus with 2 samples.

Results

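The myogenic transcription factors are the genes that switch a cell to the skeletal muscle fate and keep its muscle genes active. The group held 9 genes, the basic helix-loop-helix (bHLH) factors MYOD1, MYOG, MYF5 and MYF6, the paired box factors PAX3 and PAX7, and the MEF2 factors MEF2A, MEF2C and MEF2D, out of 15605 genes with a probe set of their own name. They were chosen by their role in muscle, with the higher signals of skeletal muscle contractile genes in the RVO array already known, so every value below is a description of the arrays that prompted the choice. Each of the 9 genes had 1 probe set named for it alone. The RVO array held retinal RNA of Dutch rabbits 7 days after an argon laser had closed the retinal veins (retinal vein occlusion, RVO), and the control array held untreated retina. Under the study's methods RVO was made in right eyes and left eyes served as controls, and the lasered spot was cut away before collection. The labels do not give the sex or age of the rabbits, how many animals stand behind each RNA sample, or whether both samples came from 1 rabbit. Each condition was read on 1 array, so no value has a replicate error and no difference was tested.

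In development PAX3 and PAX7 mark the precursors of muscle, and PAX7 marks the satellite cells that repair it in the adult. MYF5 and MYOD1 commit these cells to muscle, MYOG drives their differentiation and fusion, and MYF6, also called MRF4, is the member of the family that stays abundant in mature fibres. The bHLH factors bind DNA in pairs with E proteins and act together with MEF2 factors on the promoters of sarcomere and acetylcholine receptor genes. The MEF2 genes are not restricted to muscle, since neurons, endothelial cells and microglia use them too. Retina itself holds no skeletal muscle.

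No myogenic factor differed by more than 2-fold between the RVO retina and the control retina. Signals are log2 values, so a difference of 1 is a 2-fold change. Genes whose higher signal lay under 5 were left out of the counts. Of the 9 members 7 passed this filter, and none of the 7 lay beyond 2-fold in either direction. Over all 12724 genes past the filter, 3.50% exceeded 2-fold upwards in the RVO array and 0.479% downwards. With so few genes beyond 2-fold, a count of 0 among 7 members is close to that of genes in general. The median log2 difference of the 7 members was -0.11, beside -0.04 over all genes. Of the 7 members 6 had a difference below 0, as had 56.0% of all genes. Sarcomere genes in the same arrays had a median of 2.02, with 29 of 41 beyond 2-fold, all upwards.

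**Figure D1:**
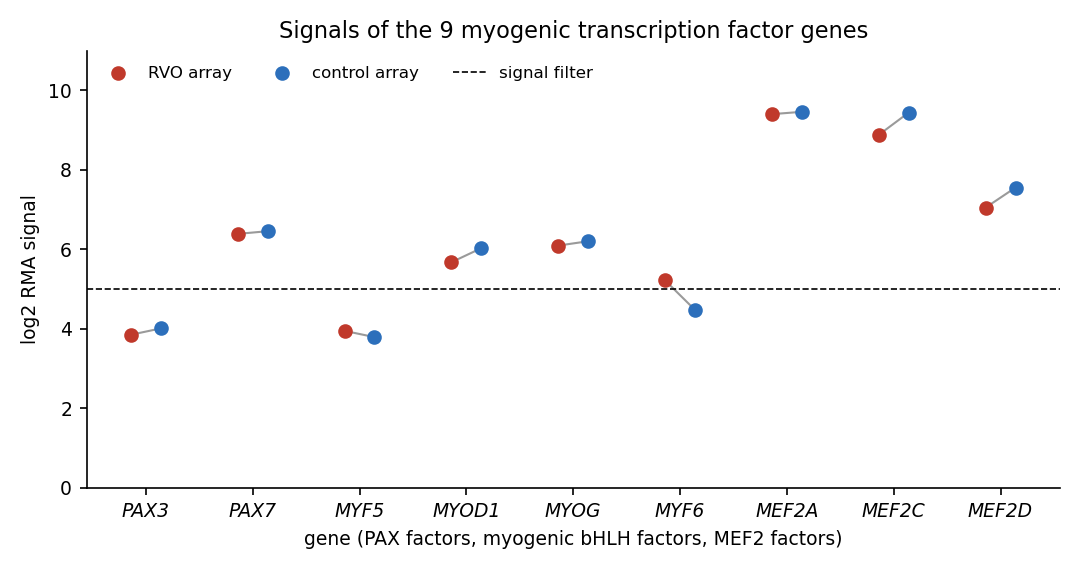
Log2 RMA signal (vertical axis) of each of the 9 genes, with the RVO array in red on the left of each pair and the control array in blue on the right. The dashed line is the signal filter at 5; PAX3 and MYF5 lie under it in both arrays and MYF6 in the control array alone.

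PAX3 had a log2 signal of 3.85 in the RVO array and 4.01 in the control array. PAX7 had 6.39 in the RVO array and 6.46 in the control array. Neither array thus stood out for the precursor genes, with differences of -0.16 for PAX3, which lay under the filter, and -0.07 for PAX7. The PAX7 difference became 0.00 once the trend of differences with signal was removed.

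MYF5, which with MYOD1 commits precursors to muscle, had a log2 signal of 3.95 in the RVO array and 3.79 in the control array, under the filter in both. MYOD1 had 5.68 in the RVO array and 6.03 in the control array, a difference of -0.35, or 0.782-fold. The difference of MYOD1 thus lay below 0, and 11.2% of all genes past the filter had a lower one. Among genes with a mean signal from 5.5 to 7 it lay between the 5th percentile, -0.50, and the 25th, -0.22. MYOG, the factor of differentiating and fusing myoblasts, had 6.10 in the RVO array and 6.21 in the control array. Its difference of -0.11 lay inside the quartiles of genes of like signal, which were -0.22 and 0.16 for 4021 genes with a mean signal from 5.5 to 7.

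MYF6 was the only member past the filter with a higher signal in the RVO array. It had 5.22 in the RVO array and 4.48 in the control array, a log2 difference of 0.74, or 1.67-fold. MYF6 passed the filter through the RVO array alone, so the size of its difference rests on a low signal. It ranked 696th of 12724 genes from the highest difference, and 94.5% of genes had a lower one. Among 2884 genes with a mean signal from 4 to 5.5, the 95th percentile of the difference was 0.78, just above MYF6. At a lower limit of 1.5-fold MYF6 was the 1 member called higher and no member was called lower, where 7.25% of all genes were higher and 3.03% lower. In the RefSeq table of assembly mOryCun1.1 MYF6 and MYF5 are neighbouring genes, and MYF5 differed by 0.16 under the filter.

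MEF2A, which is expressed in many tissues, had a log2 signal of 9.40 in the RVO array and 9.46 in the control array, a difference of -0.06. MEF2C had 8.88 in the RVO array and 9.44 in the control array, a difference of -0.56, or 0.678-fold. MEF2D, which mouse photoreceptors need, had 7.05 in the RVO array and 7.56 in the control array, a difference of -0.50, or 0.705-fold. MEF2C and MEF2D were thus the members with the lowest values, and they ranked 12262nd and 12088th of 12724 genes from the highest difference. Both lay near the lower edge for their signal, as the 5th percentile was -0.48 for 2544 genes with a mean signal from 8.5 to 10 and -0.50 for 3825 genes from 7 to 8.5.

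**Figure D2:**
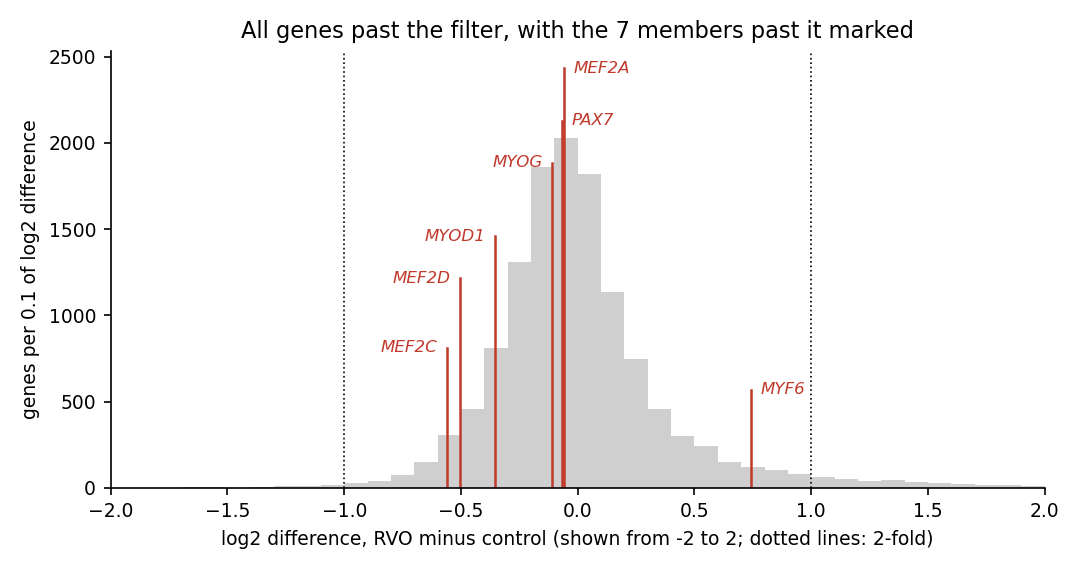
Number of genes (vertical axis) by log2 difference, RVO minus control (horizontal axis), for the genes past the filter, with red lines at the 7 members past it; the heights of the lines only separate the names. PAX7, MEF2A and MYOG sit at the centre of the distribution, MEF2C and MEF2D on its lower flank at -0.56 and -0.50, and MYF6 on its upper flank at 0.74.

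Genes of retinal neurons, which also use MEF2 factors, had lower signals in the RVO array on the whole. Retinal markers showed the labelled tissue, with signals of 10 photoreceptor genes between 8.97 and 12.92 in the RVO array and between 9.14 and 12.96 in the control array. All 10 photoreceptor genes had a difference below 0, with a median of -0.41. The median was -0.70 for 11 genes of retinal ganglion cells, the output neurons of the retina, and 5 of them were lower by over 2-fold. For 13 genes of microglia and macrophages, which use MEF2C too, the median was 1.33, and 10 of the 13 were higher by over 2-fold. Endothelial genes had a median of 0.15 over 8 past the filter, with 1 higher by over 2-fold, the adhesion molecule PECAM1 at 1.03. The part of these cells in the MEF2C and MEF2D values was not tested, and in such bulk RNA fewer cells of a type and less RNA per cell cannot be told apart.

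The arrays also read genes that belong to other organs. Of 40 such genes listed, among them hormones, lung surfactant and egg coat proteins, 32 had a probe set. Their signals ran from 2.40 to 6.59 in the RVO array and from 2.26 to 6.93 in the control array. LHB alone set the top of both ranges, and the next highest gene had 6.04 in the RVO array and 6.08 in the control array. In both arrays MYOG and PAX7 lay between that gene and LHB, and MYOD1 lay below that gene. Of the 32 genes 10 passed the filter, beside 12724 of 15605 genes in general. Differences of these 32 genes ran from -0.48 to 0.51 and none passed 2-fold. Probe sets differ in their own background, and whether MYOD1, MYOG and PAX7 were active in either retina was not tested.

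The E proteins and their antagonists gave small positive values. E proteins pair with the myogenic bHLH factors, and ID proteins capture E proteins and so hold the myogenic factors off DNA. All 5 measured genes of 7 listed had a difference above 0, as had 5452 of the 12724 genes past the filter. Their median was 0.27 and none was beyond 2-fold, where 3.50% of all genes were higher and 0.479% lower. The E protein TCF3 and the inhibitor ID4 had no probe set of their own names. The inhibitor ID3 had a signal of 7.49 in the RVO array and 6.75 in the control array, a difference of 0.74. ID2 differed by 0.39 and the E protein TCF4 by 0.27. The same genes also act in glia and vessels.

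Regulators above the myogenic factors gave no shared direction. They include factors that help to activate the bHLH genes in precursors and the factors of head muscle. Of 12 genes past the filter none passed 2-fold, 7 lay below 0 and the median was -0.11. Genes in general gave a like count, as 3.50% exceeded 2-fold upwards and 0.479% downwards. EYA4 differed by 0.95, with 5.36 in the RVO array and 4.41 in the control array, so that its control signal too was under 5. ISL1, a factor of head muscle precursors that also marks retinal ganglion and bipolar cells, differed by -0.61, and the repressor MSC by -0.53.

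Repressors of the muscle programme had a median of -0.10 over 9 genes, with 1 beyond 2-fold in each direction. SNAI2, a zinc finger repressor that blocks MYOD1 targets in myoblasts and marks mesenchymal cells, had 7.67 in the RVO array and 6.23 in the control array, a difference of 1.45. MSTN, which encodes the growth inhibitor myostatin, had 6.40 in the RVO array and 7.55 in the control array, a difference of -1.15. The Notch target HEY1 differed by -0.49.

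Genes that set the activity of MEF2 proteins lay within 2-fold. Class IIa histone deacetylases hold MEF2 silent, and calcineurin and MAP kinases release it. A count of 0 among 17 measured genes is close to that of genes in general, where 3.50% exceeded 2-fold upwards and 0.479% downwards. Of these 17 genes 13 had a difference below 0, as had 56.0% of all genes. Their median was -0.09, beside -0.04 over all genes. The deacetylases HDAC5 and HDAC9 differed by -0.42 and -0.40, and the calcineurin inhibitor CABIN1 by -0.23. These named genes lie on the same side of 0 as the MEF2 genes themselves, while 4 of the 17 lay above 0, up to 0.20.

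Surface genes of satellite cells and myoblasts, listed with a ligand, had a median of 0.28 over 11 genes past the filter. Only the ligand was higher by over 2-fold. This was HGF, the ligand of the receptor MET that wakes satellite cells, with 7.72 in the RVO array and 6.14 in the control array, a difference of 1.58. SDC4 and VCAM1, which many other cells carry, differed by 0.98 and 0.91. CDH15, the cadherin of myoblasts, had no probe set of its own name.

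Of 7 measured genes of fusion and membrane repair, 1 was higher by over 2-fold, with a list median of 0.21. It was MYOF, a membrane repair protein of fusing myoblasts that endothelial cells and macrophages also use, with 7.22 in the RVO array and 5.14 in the control array, a difference of 2.08. CAV3, the caveolin of muscle, differed by 0.44 and the receptor NEO1 by 0.24. The fusion proteins MYMK and MYMX had no probe set of their own names.

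Genes of the neuromuscular junction, whose receptor subunits are classical targets of the bHLH factors in mouse and chicken, stayed within 2-fold. A count of 0 among 11 measured genes is close to that of genes in general, of which 3.50% exceeded 2-fold upwards and 0.479% downwards. Of these 11 genes 5 had a difference above 0, and the median was -0.13, or 0.14 with the filter at 6. CHRND, the delta subunit of the muscle acetylcholine receptor, had 6.60 in the RVO array and 5.84 in the control array, a difference of 0.76. CHRNA1, the alpha subunit, had 5.21 in the RVO array and 4.49 in the control array, a difference of 0.71. CHRNG, the subunit of embryonic and denervated muscle, differed by 0.14, CHRNE, which replaces it in adult muscle, by -0.15, and the receptor kinase MUSK by -0.49. CHRNA1, like MYF6, passed the filter through the RVO array alone, and its control signal was under 5. CHRNG and CHRNE thus both lay near 0.

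Sarcomere genes gave the large differences. Of the 41 sarcomere genes past the filter 29 exceeded 2-fold upwards beside 3.50% of all genes, and none exceeded it downwards. A control signal under 5 was found for 10 of the 29. Of 13 fast fibre genes listed 6 were measured and 4 were higher, led by the myosin light chain MYL1, with 10.38 in the RVO array and 6.02 in the control array. Of 9 slow fibre genes listed 7 were measured and 6 were higher, led by the slow troponin TNNI1, with 8.98 in the RVO array and 5.48 in the control array. The myosin heavy chains MYH1, MYH2, MYH4 and MYH7 of these lists had no probe set of their own names. The embryonic myosin MYH3 had 8.71 in the RVO array and 6.04 in the control array. ACTC1, the actin of heart and developing muscle, had 9.31 in the RVO array and 6.36 in the control array. MYH3 and ACTC1 differed by 2.67 and 2.95. MYL4, the other measured gene of the developmental list, differed by 0.76, so 2 of 3 were beyond 2-fold. The myogenic bHLH factors past the filter differed by -0.11 (MYOG), -0.35 (MYOD1) and 0.74 (MYF6). MYH13, the fast myosin of the eye muscles, had 5.04 in the RVO array and 5.12 in the control array, a difference of -0.08. MYH15, another myosin of eye muscle fibres, had 6.0 in the RVO array and 4.51 in the control array, or 2.82-fold, with the control signal under 5. MYH7B, also listed with the eye muscle myosins, had 5.16 in the RVO array and 5.17 in the control array, a difference of -0.01. Of these 3 genes 1 was beyond 2-fold. MYH13 and MYH7B lay just above the filter in both arrays, so their small differences rest on low signals. Where the muscle transcripts came from was not tested.

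**Figure D3:**
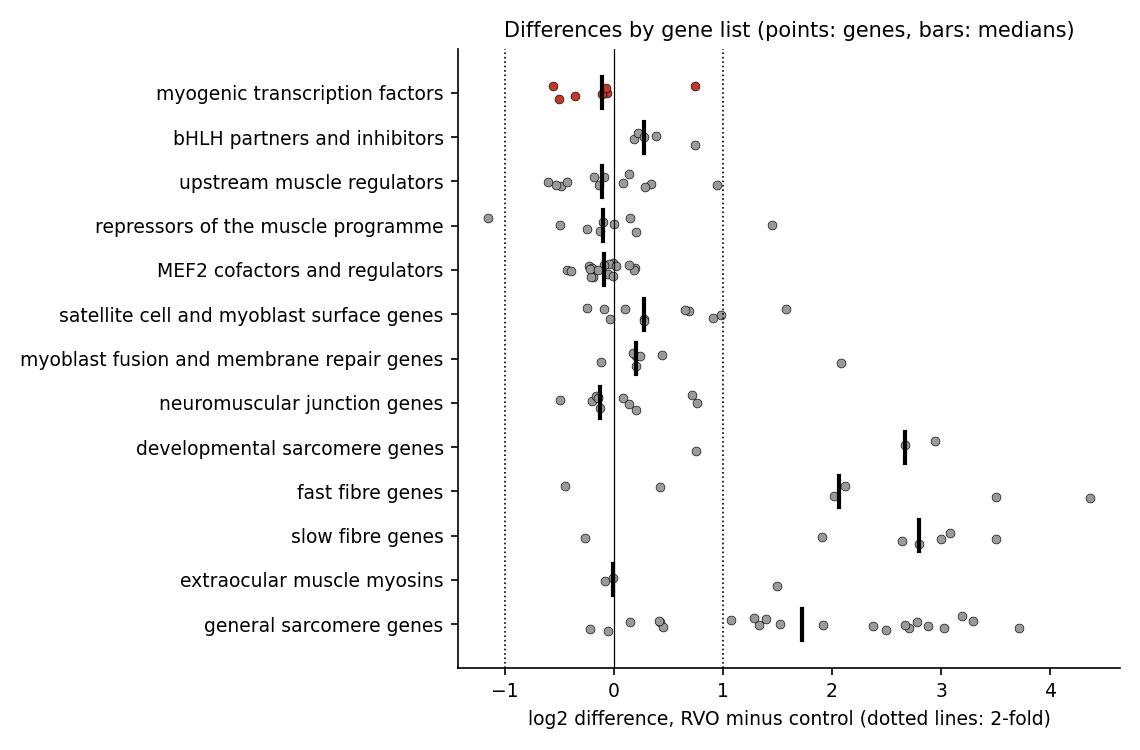
Log2 difference, RVO minus control (horizontal axis), of the genes past the filter in each list; points are genes, black bars are medians and dotted lines mark 2-fold. The 7 myogenic factors lie between -0.56 and 0.74, and the fast, slow, developmental and general sarcomere lists have medians between 1.72 and 2.80.

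The members' values moved little with the way the arrays were read. MYF6 ranged from 0.74 to 0.84 and MYOD1 from -0.35 to -0.26 over the settings tried. MEF2C ranged from -0.57 to -0.54 and MEF2D from -0.52 to -0.46. No member reached 2-fold under any of these settings. The filters, and the mean of all probe sets with 1 probe set per member, could not change a member's difference. As a measure of error within an array, probe sets of the same gene were compared, and their log2 differences had a pooled SD of 0.19 over 118 genes. The values of MYOG, PAX7 and MEF2A lay within that SD of 0, and those of MYF6, MEF2C, MEF2D and MYOD1 beyond it. Many genes lay beyond it too, as the 25th percentile of the difference was -0.22 for genes with a mean signal from 5.5 to 7. The members had 1 probe set each, so the SD came from other genes. For genes with a mean signal from 4 to 5.5, where MYF6 lay, the 5th and 95th percentiles were -0.53 and 0.78. This SD leaves out the spread between animals and between arrays. With 1 array per condition no profile across samples could be formed, so no genes were matched to the members by pattern.

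**Figure D4:**
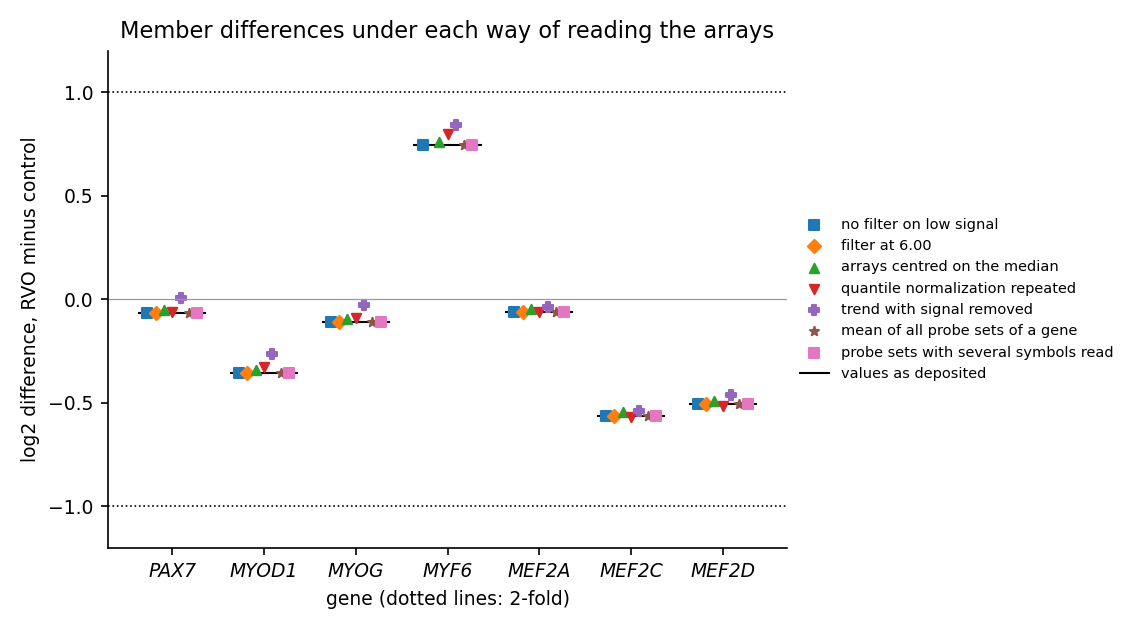
Log2 difference, RVO minus control (vertical axis), of the 7 members past the filter, with 1 marker for each way of reading the arrays and a black line at the value as deposited; dotted lines mark 2-fold. MYF6 stays between 0.74 and 0.84, PAX7 reaches 0.00 with the trend removed, and MYF6 has no marker for the filter at 6, which it does not pass.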

How the data were processed

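A single Rabbit Gene 1.0 ST array was read for the RVO condition and another for the untreated condition. The deposited log2 signals were made by the authors with RMA in R, which corrects background, equalizes the distribution of the arrays and summarizes each probe set. Of 26193 probe sets 15816 carried 1 symbol in the platform annotation, and only these were named. Each gene was read from its probe set with the highest mean, and genes whose higher signal was under 5 were left out of counts. Differences are RVO minus control, counted at 2-fold. The methods' threshold and filter were kept. No test was run, since each condition has 1 array, whose number limits the precision. Members and gene lists were chosen with earlier results of these data known. All 9 members were named. Genes named from other lists are among the 3 with the largest absolute difference past the filter, or are muscle genes that bear on the members. Names and gene neighbours were checked in the RefSeq table of mOryCun1.1. Counting was tested on simulated data. Python 3.11.15, pandas 2.3.3 and statsmodels 0.14.6 (lowess span 0.3) were used. Housekeeping genes were at a median of 0.00 over 10 genes, with 1 beyond 2-fold. Alternatives were other filters, centring, repeated quantile normalization, removal of the trend with signal, other probe set rules and other thresholds.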

Additional observations from a re-analysis of the deposited data

How the results depend on the processing

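No paired analysis was possible because each condition has 1 array. The count of members beyond 2-fold was 0 in both directions with no filter, with the filter at 6 and with median centring. It was also 0 with repeated quantile normalization, the trend removed, the mean of all probe sets, probe sets with several symbols and at 3-fold. A higher filter or a 3-fold limit could not raise this count. With 1 probe set each, the members kept their values under the mean of all probe sets. At 1.5-fold the count was 1 higher, MYF6. For all genes the counts were 194 higher and 8 lower at 3-fold, 923 and 386 at 1.5-fold, against 445 and 61 at 2-fold. The members' median ran from -0.23 to -0.04. With the filter at 6 the median of neuromuscular junction genes was 0.14 and that of all sarcomere lists 2.64, where fewer genes entered; the other list medians recomputed moved by less than the SD of 0.19 between probe sets. With no filter MYF5 and PAX3 entered at 0.16 and -0.16. Low signal limits MYF5, PAX3 and MYF6, and the lack of replicate arrays limits every value.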

Other observations

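Transcription factors of the other muscle types lay within 2-fold too, where they passed the filter. Of 7 cardiac factors, which specify heart muscle, 6 passed the filter, none was beyond 2-fold and the median log2 difference, RVO minus control, was -0.15. A count of 0 among 6 is close to that of genes in general, of which 3.50% exceeded 2-fold upwards and 0.479% downwards. NKX2-5 had a signal of 5.74 in the RVO array and 6.14 in the control array, GATA6 differed by -0.35 and HAND2 by -0.16. MYOCD, the coactivator of smooth muscle genes, had signals of 3.06 in the RVO array and 3.27 in the control array, under the filter in both. Of 5 smooth muscle genes past the filter 2 were higher by over 2-fold. ACTA2, the smooth muscle actin that myofibroblasts also use, had 8.84 in the RVO array and 5.78 in the control array, and TAGLN differed by 1.17. MRTFB, which relays actin dynamics to SRF, differed by 0.58.

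Connective tissue genes were higher in the same array as the sarcomere genes. Fibroblast genes had a median of 1.17, and 7 of the 9 exceeded 2-fold upwards. The proteoglycan gene DCN had 10.90 in the RVO array and 6.90 in the control array, LUM differed by 2.49 and DPT by 1.97. DPT passed the filter through the RVO array alone, with a control signal of 4.08. Of the 9 genes 1 lay below 0, at -0.41. Of 7 genes of Müller glia, the support cells of the retina, none passed 2-fold and the median was 0.49. These genes were split, with 5 above 0, up to 0.61 for SLC1A3, and 2 below, down to -0.67 for RLBP1. Bipolar and amacrine cell genes had a median of -0.37 over 12 genes, with 1 lower by over 2-fold, CALB2 at -1.62. Of 7 pigment epithelium genes none passed 2-fold, and the median was -0.55. Among 5 lens genes CRYGS differed by 4.47, while CRYAA differed by 0.50 and the list median was -0.14. Of 3 lymphocyte genes past the filter none was beyond 2-fold, and their median was -0.41.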
